A study of Mus musculus with 6 samples.

Results

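A set of 10 genes of dietary fat handling in the enterocyte was described here across RNA-seq libraries from mouse small intestine: Acsl5, Mogat2, Dgat1, Dgat2, Cidec, Cideb, Plin2, Plin3, Pnpla2 and Aqp7. They were selected on function and on their measured fold changes between the same groups, known from earlier results, and all 10 were found among the 55298 genes counted. Their differences between the groups are therefore a description. All libraries came from small intestine epithelial cells of mice with collagen-induced arthritis, a joint inflammation that follows immunisation with collagen. The 3 libraries of strain HIF2[alpha] +/- [delta]IEC, written ΔIEC here, came from mice that the series describes as lacking HIF2α specifically in the intestine. The other 3 came from HIF2[alpha] +/- F/F littermates and served as controls. What +/- stands for, the driver of the deletion, and the age and number of mice are not given in the sources used here. The gene for HIF2α is Epas1, and the protein is an oxygen-regulated transcription factor.

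Absorbed fatty acids and monoacylglycerol are rebuilt into triglyceride inside enterocytes. Acyl-CoA synthetases activate the fatty acids, and acyltransferases of the endoplasmic reticulum join them to the glycerol backbone. The triglyceride is then either loaded into chylomicrons for export or held for a time in cytosolic lipid droplets, whose surface proteins govern their growth and whose lipases release the fat again. Aquaglyceroporins let the glycerol that lipolysis frees cross membranes.

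The libraries held 28937122 to 38454620 gene-assigned reads, and 15143 genes had enough reads to be tested. The check of the targeted gene went against the labels. Epas1 had 44.2, 25.9 and 31.9 CPM (reads scaled to library size) in the libraries labelled ΔIEC, against 12.2, 19.4 and 17.5 CPM in those labelled control. Gene counts do not show which exons the reads came from, so a deletion of part of the gene is not tested by this. All directions given here follow the labels. Fold changes followed transcript GC content across genes (Spearman correlation of -0.74 over 15135 genes, which are not independent replicates), and each value is therefore given without and with a correction for GC content and length. The correction left a small trend in the same direction (Spearman correlation of -0.09). Median corrected log2 fold changes were 0.23 in decile 3 of tested genes by GC content and -0.16 in decile 9. Xist and the Y-linked Eif2s3y showed both sexes in each group, and control library 3 held both transcripts, at 48.4 and 5.21 CPM. Without control library 3, the calls on the 10 genes stayed at 1 higher and 8 lower without correction, and at 1 higher and 6 lower with it. Over all genes, 5794 of 15710 were then called higher and 4745 lower without correction. With it, 1953 of 15700 were called higher and 2110 lower. Nothing is read from the counts of the 10 genes.

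The 10 genes lie on 7 chromosomes of the GRCm38 build and are all annotated as protein coding. Aqp7 (chromosome 4, 41033074 to 41048139) and Plin2 (86648386 to 86670060) share chromosome 4. Dgat2 (99153658 to 99182719) and Mogat2 (99219084 to 99238619), relatives in sequence and in the reaction type they catalyse, are neighbours on chromosome 7, with 36364 bases and no other annotated gene between them. Pnpla2 lies farther along chromosome 7 (141455198 to 141460743). Cidec is on chromosome 6 (113424634 to 113435760), Cideb on chromosome 14 (55754050 to 55758458), Dgat1 on chromosome 15 (76502015 to 76511953), Plin3 on chromosome 17 (56277476 to 56292873) and Acsl5 on chromosome 19 (55251938 to 55297720).

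RefSeq promoter windows, 250 bases before to 50 after the start site, were at hand for 7 of the 10 genes, in 9 windows because Cidec and Aqp7 have a pair of start sites each. Those of Dgat1, Dgat2 and Mogat2 were not used here. Windows were searched on both strands for the core letters of the hypoxia response element bound by HIF factors, ACGTG and GCGTG, for the direct repeat AGGTCANAGGTCA read by PPAR:RXR, and for the HNF4 motif CAAAGTCCA. The 250 upstream bases are shown for the gene lowest in the libraries labelled ΔIEC, for the droplet protein that was lowest there, for the gene that was highest and for the gene whose groups overlapped, each 5′ to 3′ on the gene's strand in the RefSeq GRCm38.p6 sequence, with any complete core match in capitals.
Aqp7, chr4:41048137-41048386, minus strand: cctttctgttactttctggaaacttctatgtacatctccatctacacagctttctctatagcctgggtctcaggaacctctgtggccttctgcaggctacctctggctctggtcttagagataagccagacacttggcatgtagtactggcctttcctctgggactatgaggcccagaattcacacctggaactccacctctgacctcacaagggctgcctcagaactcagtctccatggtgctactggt
Cidec, chr6:113434765-113435014, minus strand: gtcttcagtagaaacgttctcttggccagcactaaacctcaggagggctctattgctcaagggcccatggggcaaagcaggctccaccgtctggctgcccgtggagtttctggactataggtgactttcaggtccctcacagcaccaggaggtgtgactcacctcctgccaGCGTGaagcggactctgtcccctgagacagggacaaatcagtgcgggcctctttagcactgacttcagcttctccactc
Acsl5, chr19:55253119-55253368, plus strand: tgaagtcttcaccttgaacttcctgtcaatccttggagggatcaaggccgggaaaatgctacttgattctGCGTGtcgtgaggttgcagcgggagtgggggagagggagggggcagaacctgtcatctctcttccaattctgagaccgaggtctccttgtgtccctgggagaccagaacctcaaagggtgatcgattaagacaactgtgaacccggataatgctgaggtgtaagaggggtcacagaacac
Plin2, chr4:86670060-86670309, minus strand: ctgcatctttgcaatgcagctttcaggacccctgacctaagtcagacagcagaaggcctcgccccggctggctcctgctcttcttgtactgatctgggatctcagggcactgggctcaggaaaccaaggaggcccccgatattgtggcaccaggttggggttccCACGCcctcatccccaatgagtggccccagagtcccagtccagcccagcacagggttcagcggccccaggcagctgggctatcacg
The window of Acsl5 had GCGTG starting 180 bases before the start site, and that of the Cidec start site shown had it 79 bases before. The bases shown for Acsl5 and Cidec lie within the annotated gene spans given above. The Cidec start site shown is the inner of its pair, and the outer one had no complete core before it. Plin2 had GCGTG on the opposite strand, read as CACGC in the line shown, and the palindrome CACGTG across its start site, which runs past the bases shown and holds ACGTG on both strands. Cideb and the other Cidec window had GCGTG on the opposite strand just after the start site. Neither core was in the windows of Aqp7, Plin3 or Pnpla2, and none of the 9 windows held the PPAR:RXR repeat or the HNF4 motif. Of all 32851 promoter windows of this length, 19.6% held ACGTG, 32.4% GCGTG, 0.04% the repeat and 0.475% the HNF4 motif. These matches are descriptions of letters, not of binding.

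Most of the 10 genes were lower in the libraries labelled ΔIEC, and Acsl5 was higher. Without correction, 8 fell, 1 rose and Plin2 did not pass (edgeR's quasi-likelihood test, Benjamini-Hochberg adjusted p below 0.05 over all genes tested). Among all genes tested, 29.7% fell and 37.2% rose, 66.9% in either direction. After correction, 6 fell (Cidec, Cideb, Plin3, Dgat1, Pnpla2 and Aqp7) and Acsl5 rose, beside 15.6% and 14.3% of all genes, 29.9% in either direction. The members had been chosen with this contrast known, so nothing is read from their share. Those 7 genes passed in the same direction in both fits, as did 9.91% of all genes downwards and 12.4% upwards. The median log2 fold change of the 10 genes was -1.46 without and -0.71 with correction, against 0.15 and -0.02 over all genes. The CPM of 9 of the 10 genes did not overlap between the groups, in both versions; this held for 72.6% of all genes without correction and 47.5% with it. In these bulk libraries, fewer cells of a type and less RNA per cell cannot be told apart.

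**Figure D1:**
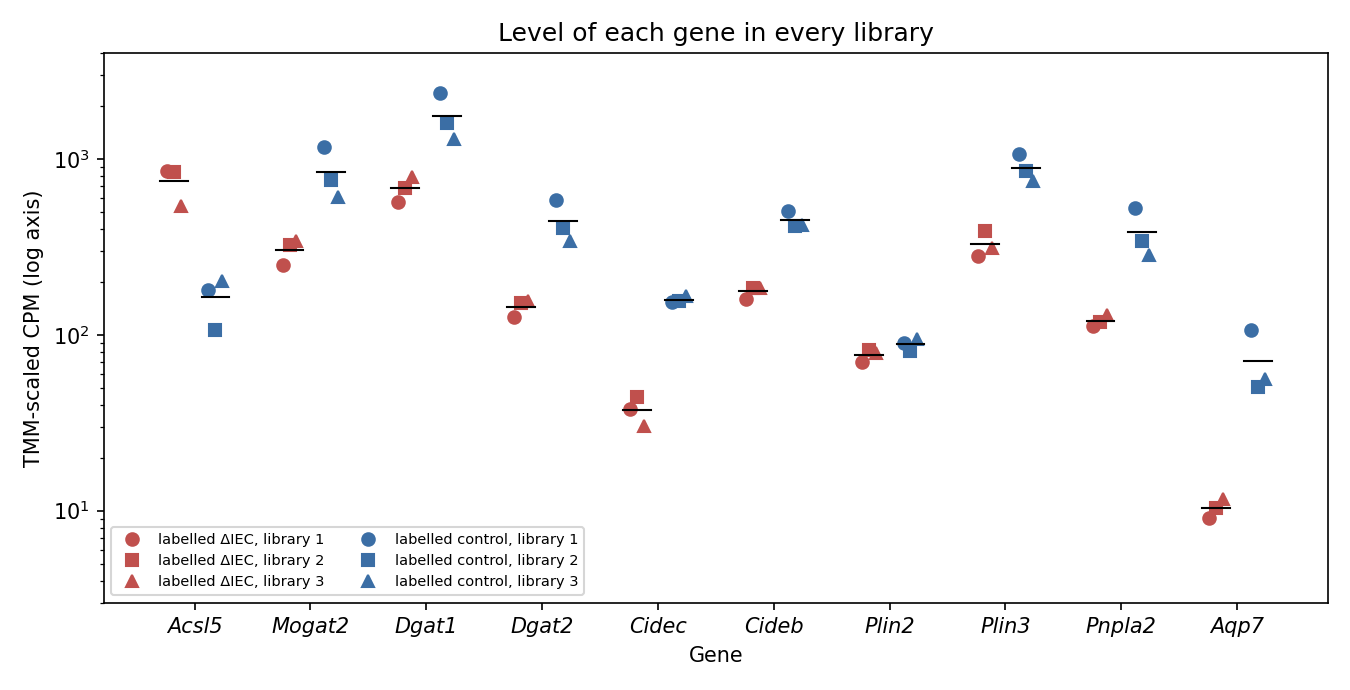
Level of each of the 10 genes in every library, in TMM-scaled CPM on a log axis, with libraries labelled ΔIEC left of those labelled control; points are libraries and bars are group means. Acsl5 is higher in the 3 libraries labelled ΔIEC than in any labelled control, Plin2 overlaps, and the other 8 genes are lower.

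Acsl5 encodes a long-chain acyl-CoA synthetase abundant in the enterocyte, which activates fatty acids for esterification. It was the only one of the 10 that rose. Levels were 855, 847 and 536 CPM in the libraries labelled ΔIEC, against 181, 107 and 201 CPM in those labelled control. The groups did not overlap, and the lowest library labelled ΔIEC was 2.67 times the highest control. The mean was 746 ± 182 CPM in libraries labelled ΔIEC and 163 ± 49.4 CPM in controls (SD, n = 3 each), a 4.58-fold higher level and a log2 fold change of 2.20 (SE 0.29). With the correction the level was 589.8, 575 and 427 CPM in the libraries labelled ΔIEC, against 276, 162 and 233 CPM in the controls, 2.37-fold higher (log2 1.24, SE 0.23). Its transcripts have a median GC content of 46.4%, in decile 3 of tested genes by GC content, whose median log2 fold change was 1.53. The opposite-strand gene Zdhhc6 covers 8.31% of the exon bases of Acsl5. It was itself higher, at 52.9 ± 5.66 CPM in libraries labelled ΔIEC and 15.6 ± 5.75 CPM in controls (n = 3 each), far below Acsl5 in the ΔIEC libraries.

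Mogat2, Dgat1 and Dgat2, acyltransferases of triglyceride assembly, fell without correction; with it Dgat1 passed and the other two did not. Mogat2, which adds an acyl chain to absorbed monoacylglycerol in the first step of the enterocyte's main route, had 248, 325 and 342 CPM in the libraries labelled ΔIEC, against 1171, 757 and 606 CPM in the controls. Dgat1, which acylates diacylglycerol to triglyceride and is a main enzyme of this step in the intestine, had 569.96, 687 and 785 CPM in the libraries labelled ΔIEC, against 2375, 1593 and 1293 CPM in the controls. Dgat2, an unrelated enzyme for the same reaction, had 126, 151 and 157 CPM in the libraries labelled ΔIEC, against 585, 406 and 340.2 CPM in the controls. In each of the 3 genes every library labelled ΔIEC lay below every control, ΔIEC library 1 was the lowest and control library 1 the highest.

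Without correction all 3 fell, with log2 fold changes of -1.47 (SE 0.28) for Mogat2, -1.37 (SE 0.27) for Dgat1 and -1.62 (SE 0.25) for Dgat2. With the correction Dgat1 was at the threshold, at -0.69 (SE 0.23, edgeR adjusted p = 0.048). Mogat2, at -0.59 (SE 0.21, adjusted p = 0.058), and Dgat2, at -0.45 (SE 0.17, adjusted p = 0.069), did not pass in the same edgeR fit. The corrected Dgat1 call was lost without control library 1 (-0.45) or 2 (-0.78) and without ΔIEC library 1 (-0.58), 2 (-0.70) or 3 (-0.79), and was -0.28 when GC content and length came from the longest transcript. This call was also lost when the edgeR test was not robust (-0.69, adjusted p = 0.052). Dgat2 passed with the longest transcript (-0.64), and both Dgat2 and Mogat2 passed with no filter on low counts (-0.72 and -0.81). Their transcripts are GC-rich, at 58.1% for Dgat2, 56.5% for Mogat2 and 54.3% for Dgat1. Decile 9 of genes by GC content, which holds Dgat2 and Mogat2, had a median log2 fold change of -1.09.

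The proportions among these enzymes were close between the groups. Dgat1 stood at 2.30, 2.11 and 2.29 times Mogat2 by CPM in the libraries labelled ΔIEC, against 2.03, 2.11 and 2.13 times in the controls, ranges that touch. Dgat1 was 4.52, 4.54 and 5.01 times Dgat2 in the libraries labelled ΔIEC, against 4.06, 3.92 and 3.80 times in the controls, a small gap without overlap. By contrast Acsl5 was 1.50, 1.23 and 0.683 times Dgat1 in the libraries labelled ΔIEC, against 0.0761, 0.0672 and 0.155 times in the controls. Of all pairs among the 10 genes, Dgat1 and Mogat2 had the most alike corrected pattern over the 6 libraries, with a root-mean-square difference of 0.072 on the log2 scale, and Acsl5 and Aqp7 the least alike, at 2.29.

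**Figure D2:**
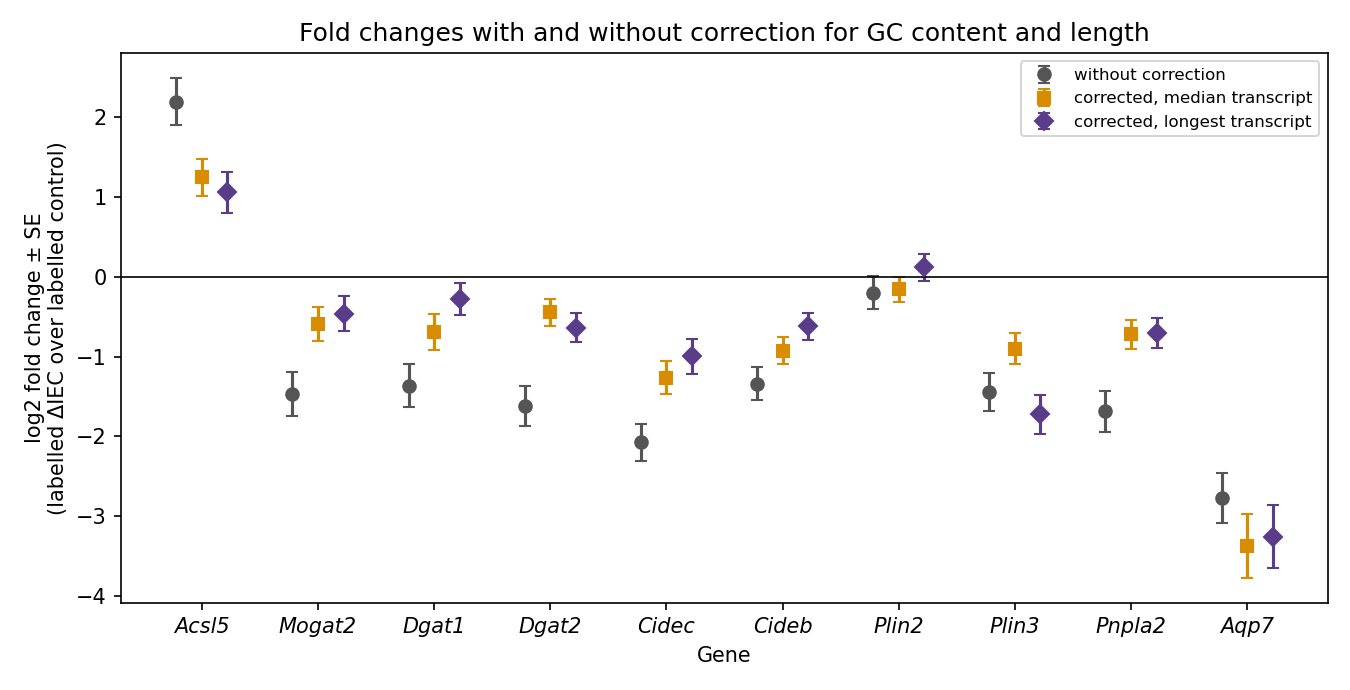
Log2 fold change (libraries labelled ΔIEC over those labelled control) of each gene without and with the correction for GC content and length. Corrected values are drawn with the median over transcripts, as in the main fit, and with the longest transcript. Bars are standard errors. Acsl5 is above 0 and Aqp7 lowest in every set of points. With the median-transcript correction Mogat2 and Dgat2 lie nearer to 0 than without correction, at -0.59 and -0.45.

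Of the droplet surface proteins, the CIDE proteins and Plin3 fell and Plin2 did not pass. Cidec, which drives the transfer of lipid between touching droplets and so their growth, had 37.6, 44.4 and 30.2 CPM in the libraries labelled ΔIEC, against 153, 155 and 165 CPM in the controls. The highest library labelled ΔIEC was 3.44-fold below the lowest control. The mean was 37.4 ± 7.13 CPM in libraries labelled ΔIEC and 158 ± 6.77 CPM in controls (SD, n = 3 each), 4.22-fold lower (log2 -2.08, SE 0.23), and 2.41-fold lower with the correction (log2 -1.27, SE 0.21).

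Cideb, known in liver for its part in the lipidation of secreted lipoproteins, had 160.2, 185 and 184 CPM in the libraries labelled ΔIEC, against 505, 413 and 422 CPM in the controls. The groups were well apart, with log2 fold changes of -1.34 (SE 0.21) without and -0.92 (SE 0.16) with the correction. Its level is uncertain, since the opposite-strand gene Nop9 covers 76.3% of its exon bases and whether counting took account of strand is not stated. Nop9 was also lower, at 38.2 ± 2.54 CPM in libraries labelled ΔIEC and 88.0 ± 27.8 CPM in controls (n = 3 each). Cidec was 0.235, 0.240 and 0.163 times Cideb in the libraries labelled ΔIEC, against 0.302, 0.375 and 0.392 times in the controls.

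The perilipins parted. Plin3, which coats newly formed droplets, had 280.5, 387 and 313 CPM in the libraries labelled ΔIEC, against 1067, 855 and 753 CPM in the controls, 2.73-fold lower with no overlap (log2 -1.45, SE 0.24) and 1.87-fold lower with the correction (log2 -0.90, SE 0.19). Plin2, a droplet coat protein that is stabilised by stored lipid, had 69.7, 82.2 and 78.7 CPM in the libraries labelled ΔIEC, against 89.6, 80.6 and 94.6 CPM in the controls. The groups overlapped, with a log2 fold change of -0.20 (SE 0.21) and of -0.16 (SE 0.16) with the correction, and the sign was positive under total-count scaling (0.28) and with the longest transcript (0.12), where it did not pass either. Plin3 was 4.02, 4.71 and 3.97 times Plin2 in the libraries labelled ΔIEC, against 11.9, 10.6 and 7.97 times in the controls, without overlap. The GC content of Plin2 transcripts, 51.8%, falls in decile 6, where the median log2 fold change was -0.03; that of Plin3, 54.9%, falls in decile 8, where it was -0.88.

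Pnpla2 encodes adipose triglyceride lipase, which removes the first fatty acid from droplet triglyceride. It had 111.5, 118 and 129 CPM in the libraries labelled ΔIEC, against 529, 340.5 and 285 CPM in the controls, with every library labelled ΔIEC below every control. The log2 fold change was -1.69 (SE 0.26) and, with the correction, -0.72 (SE 0.18). The corrected call was lost without ΔIEC library 1 (-0.69, edgeR adjusted p = 0.069) or ΔIEC library 2 (-0.71, adjusted p = 0.066).

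Aqp7, an aquaglyceroporin best known as the glycerol channel of adipocytes and also found at the enterocyte's apical membrane, was the lowest of the 10 relative to control in both fits. It had 9.10, 10.4 and 11.7 CPM in the libraries labelled ΔIEC, against 106, 50.4 and 56.2 CPM in the controls. These levels rest on 375, 351 and 395 reads in the libraries labelled ΔIEC and 3071, 1564 and 1933 reads in the controls. The libraries labelled ΔIEC lay close together, and the highest was 4.30-fold below the lowest control, while control library 1 stood well above the other controls. The mean was 10.4 ± 1.31 CPM in libraries labelled ΔIEC and 71.0 ± 30.8 CPM in controls (SD, n = 3 each), 6.83-fold lower (log2 -2.77, SE 0.32).

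Unlike in the other 8 genes that passed, the correction moved Aqp7 farther from 0, to 10.4-fold lower (log2 -3.37, SE 0.40), with 7.49, 8.67 and 9.90 corrected CPM in the libraries labelled ΔIEC against 150.4, 60.8 and 57.8 in the controls. Its transcripts have a GC content of 50.3%, in decile 5 of genes, whose median log2 fold change was 0.63. The corrected value stayed between -3.62 and -2.79 over the 19 alternative settings tried and passed in each. No annotated gene overlaps its exons. The adipocyte is the best-known source of Aqp7, so fat-cell markers were read in the same libraries. The 8 listed adipocyte markers summed to 0.148 to 0.325 CPM in the libraries labelled ΔIEC and 0.495 to 0.709 CPM in the controls, none had enough reads to be tested, and Adipoq and Lep had 0 reads in all 6 libraries.

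**Figure D3:**
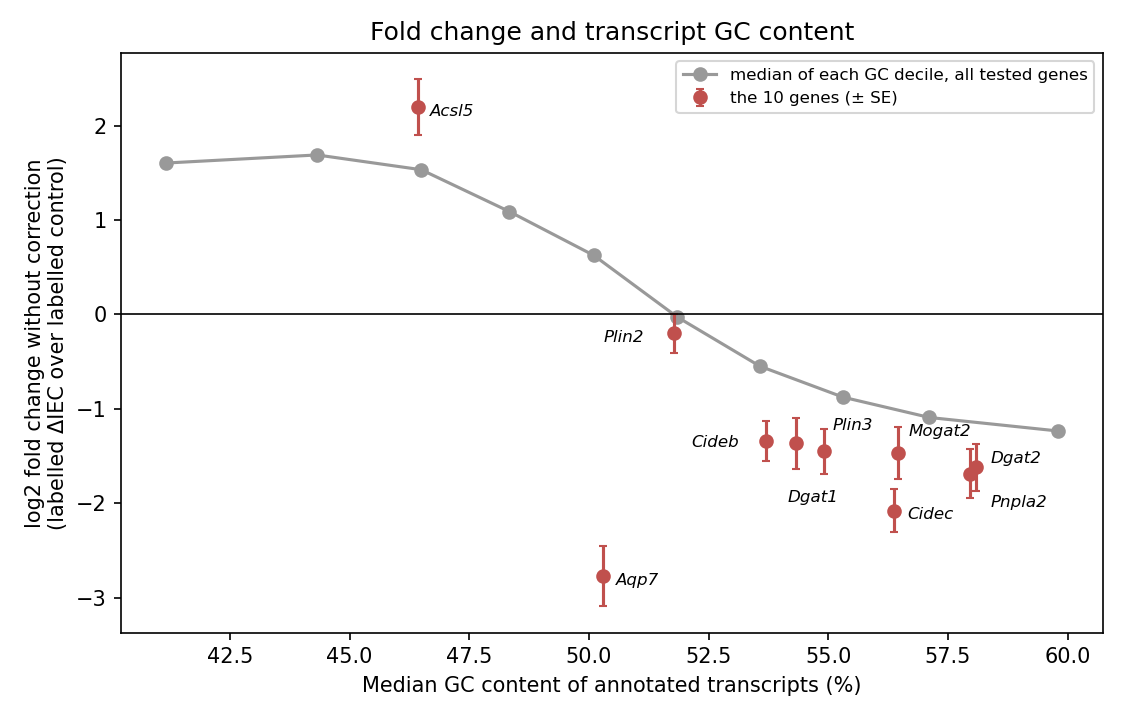
Uncorrected log2 fold change (libraries labelled ΔIEC over those labelled control) against median transcript GC content for the 10 genes, with standard errors, and the median of each decile of all tested genes by GC content. The medians run from 1.604 in the most GC-poor decile to -1.23 in the most GC-rich, and Aqp7 lies at -2.77 where the median is 0.63.

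Compared per kilobase of median transcript length, Dgat1 was the most abundant of the 10 in the controls and Aqp7 the least. Dgat1 had 894 ± 141 CPM per kilobase in libraries labelled ΔIEC and 2305 ± 734 in controls, Mogat2 286 ± 46.9 in libraries labelled ΔIEC and 792 ± 274 in controls, and Dgat2 204 ± 22.9 in libraries labelled ΔIEC and 626 ± 179 in controls (SD, n = 3 each). At this length the control means of Mogat2 and Dgat2 differ by less than their SD, as do those of Cideb (426 ± 48.4) and Plin3 (424 ± 76.0), and those of Cidec (127 ± 5.44) and Plin2 (125 ± 10.04). Within each control library, though, Mogat2 was above Dgat2, at 1097, 709 and 568 against 826, 573 and 480. Per kilobase of the longest transcript these control means were farther apart. Mogat2 had 475 ± 164 and Dgat2 196 ± 56.1, Cideb 369 ± 41.9 and Plin3 245 ± 43.9, Cidec 91.7 ± 3.93 and Plin2 46.7 ± 3.76. At the median length Acsl5 was the most abundant in the libraries labelled ΔIEC, at 1530 ± 373 CPM per kilobase, and the sixth in the controls, at 334 ± 101. That rank depends on the length used, since its annotated transcripts have a median of 487.5 bases and the longest has 4243. Per kilobase of the longest transcript Acsl5 had 176 ± 42.8 CPM in libraries labelled ΔIEC, below Dgat1 at 360.5 ± 57.0, and 38.4 ± 11.6 in controls, where it was the ninth. Dgat1 stayed first in the controls and Aqp7 last in both groups with either length. At the median length Aqp7 had 7.37 ± 0.927 CPM per kilobase in libraries labelled ΔIEC and 50.4 ± 21.8 in controls.

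Over the 6 libraries, without correction, ΔIEC library 1 was the lowest of its group for 8 of the 10 genes and control library 1 the highest of its group for 7. With the correction these counts were 8 and 9. The share over all genes is not given here, so nothing is read from these counts. The genes with the most alike corrected pattern were sought among 11120 genes. For Aqp7 they were Cdc42ep2, Sf3b5 and Rps27rt, with root-mean-square differences of 0.226, 0.273 and 0.313 on the log2 scale; counts of Rps27rt, a ribosomal protein gene with near-identical copies, are uncertain. For Cidec they were Rhod, Rhob and Rap2b, at 0.176, 0.184 and 0.194. For Acsl5 they were Tubgcp4, Eif3c and Arhgap26, at 0.064, 0.072 and 0.074. With 6 libraries in 2 groups, such a match includes the difference between the groups.

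Lists of related genes held calls in both directions, as did all genes tested, of which 37.2% rose and 29.7% fell without correction and 14.3% and 15.6% with it. Of 20 listed genes of glycerolipid assembly outside the 10, 18 were tested, and 9 rose and 6 fell without correction, 5 and 3 with it (median log2 fold change 0.91 and -0.21). The genes past both fits included Gpam, the mitochondrial glycerol-3-phosphate acyltransferase, with 17.8 ± 3.95 CPM in libraries labelled ΔIEC and 5.13 ± 1.89 CPM in controls. Acsl1, another long-chain acyl-CoA synthetase, had 70.8 ± 15.5 CPM in libraries labelled ΔIEC and 21.8 ± 7.95 CPM in controls, and Acsl6 4.58 ± 1.91 CPM in libraries labelled ΔIEC and 0.879 ± 0.319 CPM in controls (SD, n = 3 each, here and for the genes that follow). Slc27a2 and Slc27a4, which encode fatty acid transport proteins with acyl-CoA synthetase activity, went opposite ways. Slc27a2 had 89.8 ± 14.2 CPM in libraries labelled ΔIEC and 25.0 ± 11.3 CPM in controls, and Slc27a4 had 638 ± 115 CPM in libraries labelled ΔIEC and 1749 ± 537 CPM in controls. Corrected log2 fold changes were 1.29 for Gpam, 1.56 for Acsl1, 2.15 for Acsl6, 0.92 for Slc27a2 and -1.03 for Slc27a4.

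Those corrected calls were not equally firm. With the longest transcript, Acsl1 was at 0.20, Acsl6 at 0.82 and Gpam at 0.74, none of which passed, whereas Acsl5 passed under every corrected alternative, between 0.92 and 2.36. Without ΔIEC library 1, Slc27a2 (0.87) and Slc27a4 (-0.90) no longer passed, nor did Slc27a2 without control library 2 (0.79). The other tested synthetases, picked out after their values were seen, were Acsl3 and Acsl4. Acsl3 had a log2 fold change of 1.92 without and 0.62 with the correction, a call that ended without each of 5 libraries (ΔIEC 1 to 3 at 0.59, 0.64 and 0.63, control 2 and 3 at 0.54 and 0.63) and with the longest transcript (0.45). The corrected Acsl3 call also ended with DESeq2 size factors (0.61), a stricter filter on low counts (0.55) or GC content alone (0.42). Splines of 3 df ended it too (0.59). Acsl4 passed upwards without correction (1.32), though not when control library 1 (1.23), control library 2 (1.15) or ΔIEC library 2 (0.84) was left out. With the correction it was at -0.41 and did not pass.

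Of 17 listed names for droplet coat and biogenesis genes, 11 were tested, and 6 rose and 4 fell without correction, 2 and 3 with it. Tmem159, which encodes a partner of seipin, had 15.5 ± 2.40 CPM in libraries labelled ΔIEC and 31.2 ± 5.14 CPM in controls. Fitm2, needed for droplets to bud from the endoplasmic reticulum, had 24.3 ± 2.16 CPM in libraries labelled ΔIEC and 36.3 ± 5.58 CPM in controls. Bscl2, which encodes seipin itself, had 32.5 ± 1.40 CPM in libraries labelled ΔIEC and 84.1 ± 24.4 CPM in controls. All 3 fell in both fits, with corrected log2 fold changes of -1.74, -1.31 and -0.72. The Bscl2 call was lost without ΔIEC library 1 (-0.73) or 2 (-0.69). The uncorrected Fitm2 call, at -0.58, was lost without control library 1 (-0.57) or 2 (-0.51) and without ΔIEC library 1 (-0.56), 2 (-0.52) or 3 (-0.66), and uncorrected Tmem159 (-0.52) and Fitm2 (-0.10) did not pass under total-count scaling. Uncorrected Fitm2 also did not pass with no filter on low counts (-0.57).

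Hsd17b13, a droplet protein known from liver, and the droplet GTPase Rab18 rose in both fits, with corrected log2 fold changes of 0.82 and 0.52. The corrected Hsd17b13 call was lost without control library 1 (0.84), 2 (0.87) or 3 (0.75) or ΔIEC library 1 (0.62). That of Rab18 was lost without each of the 6 libraries in turn, at 0.49 to 0.56; it was also lost with the longest transcript, at 0.11 (edgeR adjusted p = 0.65), and with GC content alone, at 0.31 (adjusted p = 0.16). The adipocyte perilipin Plin1 had at most 2 reads in a library, and Plin5, the perilipin of oxidative tissues, at most 12; neither was tested.

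**Figure D4:**
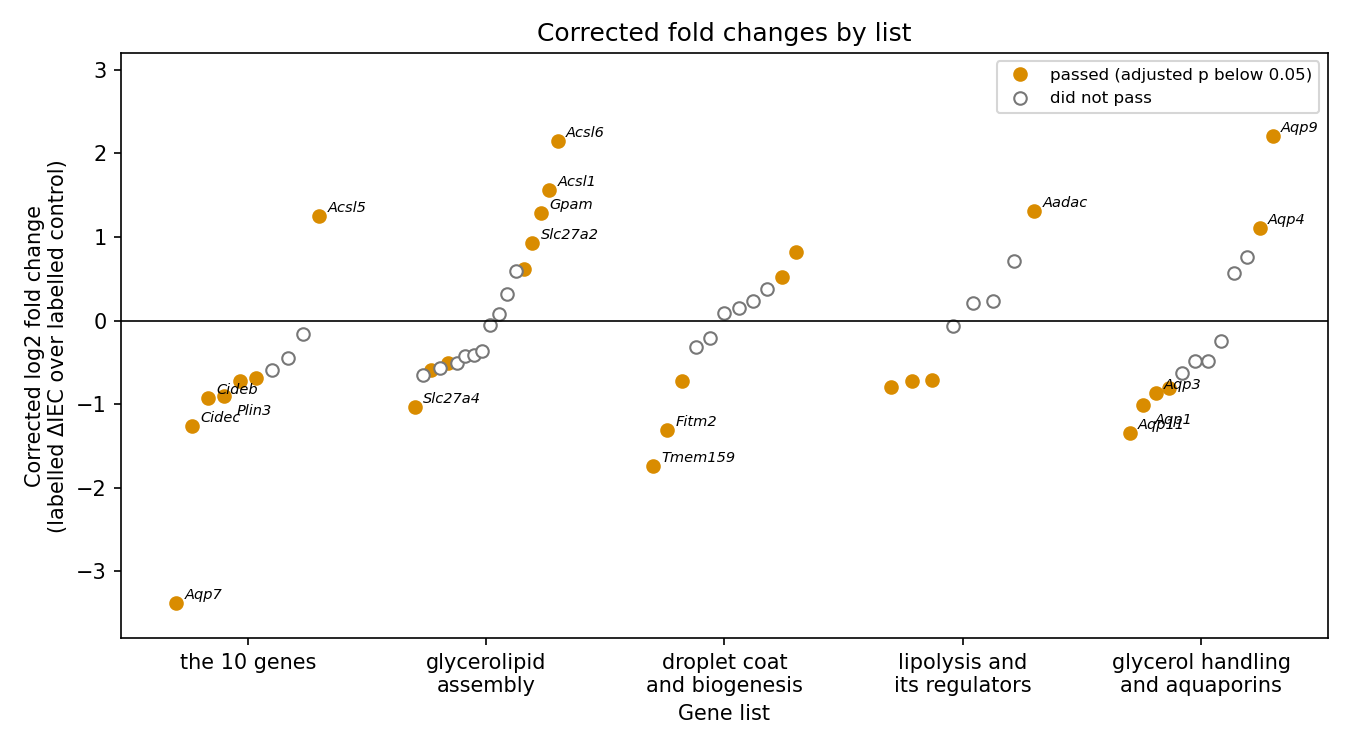
Corrected log2 fold change (libraries labelled ΔIEC over those labelled control) of each tested gene in the 10-gene set and in 4 lists of related genes; filled points passed the threshold and open points did not. Aqp7 lies lowest, at -3.37, and the other lists hold points on both sides of 0.

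Among 8 genes of lipolysis and its control, 2 rose and 2 fell without correction, 1 and 3 with it. Lipe, the hormone-sensitive lipase that acts after Pnpla2, had 77.7 ± 13.7 CPM in libraries labelled ΔIEC and 219 ± 58.2 CPM in controls (log2 fold change -1.49, corrected -0.71). Its corrected call was lost without control library 1 (-0.57) or 3 (-0.73) or ΔIEC library 1 (-0.57) or 2 (-0.76). Abhd5, whose product activates the Pnpla2 lipase, had 21.0 ± 1.61 CPM in libraries labelled ΔIEC and 20.1 ± 2.75 CPM in controls. It passed downwards only with the correction (log2 0.06 without, -0.80 with), and not without ΔIEC library 1 (-0.75) or with no filter on low counts (-0.49). With length alone corrected for, Abhd5 was at -0.09 and did not pass. Mgll, the monoacylglycerol lipase, passed downwards only without the correction (-0.85, corrected -0.07), and not without ΔIEC library 1 (-0.76) or control library 2 (-0.74) or under total-count scaling (-0.38). G0s2, whose product inhibits the Pnpla2 lipase, had 0.478 ± 0.249 CPM in libraries labelled ΔIEC and 0.555 ± 0.329 CPM in controls and did not pass in either fit. Aadac, a lipase of the endoplasmic reticulum, rose in both fits, with 125, 60.4 and 41.1 CPM in the libraries labelled ΔIEC, against 11.6, 12.6 and 15.6 CPM in the controls. Its corrected log2 fold change of 1.31 was not past the threshold without control library 1 (1.24), 2 (1.36) or 3 (1.31), or with GC content alone (1.02).

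Of 12 tested genes of glycerol handling and the other aquaporins, 5 rose and 5 fell without correction, 2 and 4 with it. Aqp3, another aquaglyceroporin, had 15.3 ± 2.84 CPM in libraries labelled ΔIEC and 42.3 ± 3.02 CPM in controls (corrected log2 fold change -0.86, lost without ΔIEC library 1 at -0.74). Aqp1, a water channel, had 221 ± 61.2 CPM in libraries labelled ΔIEC and 611 ± 303 CPM in controls (corrected -1.01). Its corrected call was lost without control library 1 (-0.57) or 2 (-1.17) or ΔIEC library 1 (-0.90) or 2 (-0.90), and with the longest transcript (-0.74). The same call was lost with limma-voom (-0.95) and with GC content alone (-0.81). Aqp11, a channel of intracellular membranes, had 61.8 ± 7.56 CPM in libraries labelled ΔIEC and 92.0 ± 0.448 CPM in controls (log2 fold change -0.57, corrected -1.34). The uncorrected call was lost without ΔIEC library 1 (-0.52) or 2 (-0.52) or control library 2 (-0.64) and under total-count scaling (-0.10). With no filter on low counts it was lost as well (-0.57).

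Aqp4 and Aqp9 passed upwards in both fits, but the corrected value of Aqp4 was 0.07 with the longest transcript, and Aqp9 had at most 40 reads in a library. The corrected Aqp4 value of 1.11 passed only while all 6 libraries or all but control library 1 were kept, and lay between 0.87 and 1.14 without each of the others. The corrected Aqp9 value of 2.20 did not pass without control library 1 (1.88) or 2 (2.10) or ΔIEC library 1 (1.65), or with the longest transcript (1.42). Gk, the glycerol kinase that returns glycerol to lipid synthesis, had 84.7 ± 10.7 CPM in libraries labelled ΔIEC and 41.9 ± 15.3 CPM in controls. It passed upwards without correction (log2 1.01) and was at -0.63 with it, which did not pass, except without ΔIEC library 3, where it passed downwards (-0.85).

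Of 14 transcriptional regulators listed for these genes, 5 rose and 5 fell without correction, 2 and 2 with it. Creb3l3, an intestinal and hepatic regulator of triglyceride metabolism, had 238 ± 26.6 CPM in libraries labelled ΔIEC and 829 ± 225 CPM in controls (log2 fold change -1.80, corrected -0.86). Nr1h3, the lipid sensor LXRα, had 53.4 ± 6.47 CPM in libraries labelled ΔIEC and 143 ± 37.7 CPM in controls (corrected -0.55, lost without control library 1 at -0.42 or 3 at -0.56 and without ΔIEC library 1 at -0.48 or 2 at -0.53, and -0.34 with the longest transcript). The corrected Nr1h3 call was also lost with limma-voom (-0.54), GC content alone (-0.51) or total-count scaling (-0.53). It did not hold with a stricter filter on low counts (-0.51) or when the test was not robust (-0.55). Epas1 averaged 34.0 ± 9.31 CPM in libraries labelled ΔIEC and 16.3 ± 3.72 CPM in controls and passed upwards in both fits (1.06, corrected 1.0035), though not with the correction when ΔIEC library 1 was left out (0.78). With length alone corrected for, Epas1 was at 0.43 and did not pass.

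Cell-type and regional markers were read beside these results. The 8 enterocyte markers summed to 10685 to 13534 CPM in the libraries labelled ΔIEC and 15691 to 16927 CPM in the controls; 3 of the 8 rose and 2 fell without correction, 2 and 1 with it. Krt8 set much of that sum, with 3218 ± 575 CPM in libraries labelled ΔIEC and 7910 ± 1506 CPM in controls. Without it, a choice made after seeing the data, the sums overlapped, at 8129 to 9941 CPM in the libraries labelled ΔIEC and 6163 to 10377 CPM in the controls, and 5 of the other 7 markers had the higher mean in libraries labelled ΔIEC. The 5 villus tip markers summed to 575 to 1098 CPM in the libraries labelled ΔIEC and 1587 to 2694 CPM in the controls; 2 rose and 1 fell without correction, 0 and 1 with it. That sum rested on Ada, with 479 ± 176 CPM in libraries labelled ΔIEC and 1779 ± 507 CPM in controls; without it the sums overlapped, at 282 to 454 CPM in the libraries labelled ΔIEC and 168 to 529 CPM in the controls, and 3 of the other 4 markers had the higher mean in libraries labelled ΔIEC. The 6 villus base markers overlapped in sum, at 3268 to 11561 CPM in the libraries labelled ΔIEC and 7560 to 8607 CPM in the controls, though 2 rose and 1 fell without correction, 0 and 1 with it. The 4 distal small intestine markers summed to 489 to 1431 CPM in the libraries labelled ΔIEC and 1408 to 2122 CPM in the controls; 1 rose and 3 fell without correction, 0 and 1 with it. Without the most abundant, Fabp6, the distal sums were 66.8 to 112 CPM in the libraries labelled ΔIEC and 178 to 334 CPM in the controls. Osr2 set much of that sum, with 85.8 ± 19.9 CPM in libraries labelled ΔIEC and 192 ± 52.1 CPM in controls. Fgf15 was the 1 distal marker that fell in both fits (log2 fold change -3.76, corrected -2.59). It had 3.14 ± 2.45 CPM in libraries labelled ΔIEC and varied widely among the controls, at 80.5, 9.34 and 37.0 CPM. Of the 3 markers left, 1 had the higher mean in libraries labelled ΔIEC. This was Slc10a2, with 7.69 ± 5.72 CPM there and 2.65 ± 1.49 CPM in controls. The 5 proximal markers overlapped, at 1825 to 2533 CPM in the libraries labelled ΔIEC and 2099 to 2547 CPM in the controls. Of these markers, 2 rose and 1 fell without correction, 0 and 2 with it. Without Lct their sums were only just apart, at 1169.8 to 1290.3 CPM in the libraries labelled ΔIEC and 872 to 1163.8 CPM in the controls. Of the other 4 markers, 3 had the higher mean in libraries labelled ΔIEC. The exception, Gata4, fell in both fits (log2 fold change -1.20, corrected -0.57). Markers of intraepithelial T lymphocytes summed to 474 to 2903 CPM in the libraries labelled ΔIEC and 564 to 1447 CPM in the controls, where 2 of 9 rose without correction and 1 with it. Endothelial markers were at 7.56 to 9.78 CPM in the libraries labelled ΔIEC and 1.87 to 3.22 CPM in the controls. Of the 4 tested, 2 rose in both fits. Plvap fell without correction (log2 fold change -1.73) and did not pass with it (-0.70). Macrophage markers gave 16.1 to 31.4 CPM in the libraries labelled ΔIEC and 11.6 to 29.2 CPM in the controls, and stromal markers 20.8 to 50.3 CPM in the libraries labelled ΔIEC and 12.0 to 29.4 CPM in the controls. Of the 6 macrophage markers, 2 rose and 0 fell without correction, 1 and 0 with it. Among the 5 stromal markers tested, 1 rose and 1 fell without correction, 0 and 1 with it. The part of villus position, intestinal region and cell mixture in the lower levels of the droplet and triglyceride genes was not tested.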

How the data were processed

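RNA-seq of small intestine epithelial cells gave 6 libraries, grouped 3 against 3 by genotype label; replicate numbers, in accession order, only name libraries. Nothing says that they came from separate mice, so p-values measure only the spread between these libraries. The submitters' processing notes name Subread 1.6.1, STAR 2.6.1c, cutadapt 1.18, SAMtools 1.8, FastQC 0.11.8 and the GRCm38 (mm10) build; strand and multi-mapping settings are not given in the sources used here. Per gene, the authors deposited raw counts, the same counts divided by size factors as a normalised signal, and regularised log2 values. Tests used the counts; size factors were read from the signal, and log2 values were an alternative. No columns were left unused.

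Identifiers were matched to GENCODE M21 without version suffix (55117 of 55298). Counts were tested with edgeR 4.0.16 in R 4.3.3 after a filter on low counts (filterByExpr with count 10 and total 15), passed by 15143 genes and all 10 of the set. Libraries were scaled by TMM, with factors of 1.27, 1.17 and 1.12 in those labelled ΔIEC and 0.75, 0.87 and 0.92 in the controls. Groups were compared by the robust quasi-likelihood test at a Benjamini-Hochberg adjusted p below 0.05 over all genes. The correction fitted log2 CPM (prior count 2), centred per gene, in every library by natural splines of median transcript GC content (6 df) plus log2 length (5 df), and used the fit as an offset for 15135 genes. It also removes true differences that follow GC content. The steps were tested on simulated data. Alternatives included limma 3.58.1 (voom) and DESeq2 1.42.0. No pair of libraries agreed within sampling noise (chi-square per degree of freedom at least 69.9). CPM and SD are TMM-scaled; SE is that of the log2 fold change.

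The members and gene lists were chosen with earlier results of these data known. Outside the 10 genes, those named are, per list, the 5 largest corrected changes past both fits, plus Epas1, Aqp3, Aqp9, Gk, Abhd5, G0s2, Lipe, Mgll, Plin1 and Plin5; Acsl3 and Acsl4 were added outside this rule, after their values were seen. The 3 most alike genes of Aqp7, Cidec and Acsl5 had at least 2 CPM on average. Promoter sequences came from RefSeq.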

Additional observations from a re-analysis of the deposited data

How the results depend on the processing

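Cidec, Cideb, Plin3, Acsl5 and Aqp7 kept their corrected call under all 19 corrected alternatives. Dgat1 lost it under 7 and Pnpla2 under 2, while Dgat2 gained one under 4 and Mogat2 under 3. For both Dgat2 and Mogat2 the gains include length alone (-1.58 and -1.63), which does not correct for GC content. They also include no filter on low counts (-0.72 and -0.81). Without correction, the 9 calls held under every scaling, filter, tool and left-out library tried, and ended once the GC slope of the libraries entered as a covariate, which widened the standard errors 3.26 to 3.85 times. That covariate follows the groups (slopes of -0.79, -0.89 and -0.64 log2 units per 10 percentage points of GC in libraries labelled ΔIEC, against 0.96, 0.93 and 0.44 in controls). With it edgeR called 0 genes higher and 0 lower, 0 of the 10 genes higher and 0 lower, with 355 genes, 1 of the 10, at an unadjusted p under 0.05. The log2 fold changes were then -2.89 (SE 0.74) for Cidec, -0.97 (0.72) for Cideb, -0.61 (0.67) for Plin2, -0.77 (0.91) for Plin3, -0.06 (0.85) for Dgat2, 0.40 (1.12) for Acsl5 and -1.20 (1.15) for Aqp7. Aqp3 (-1.73), Aqp4 (2.52) and Mgll (-1.09) also lay farther from 0, in the same direction, than without the covariate, and Acsl6 was at 2.01. Among genes that had passed without the covariate, signs turned for Dgat1 (0.54), Mogat2 (0.47), Pnpla2 (0.13), Tmem159 (0.24), Fitm2 (0.42), Bscl2 (0.41), Aqp1 (1.74), Slc27a4 (0.18), Aqp9 (-1.27), Slc27a2 (-0.51), Gk (-0.67) and Acsl4 (-2.21). They also turned for Abhd5 (-0.97) and G0s2 (2.40), which had not passed.

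Over all genes without correction, total-count scaling called 6550 higher and 2660 lower, against 5636 and 4499 with TMM, and moved the median log2 fold change of all genes to 0.61; DESeq2 size factors moved it to 0.01. With correction (2162 higher, 2362 lower), no filter on low counts called 4138 higher, and correcting for length alone called 4671 higher and 5235 lower. Leaving out each library called 1069 to 2025 higher and 1121 to 2290 lower, and 4 to 6 of the 10 genes lower. The calls fell by over 1.5 times without ΔIEC library 1 (1164 higher, 1121 lower), ΔIEC library 2 (1405, 1440) and control library 2 (1069, 1549). The cause of these shifts in the counts was not tested. The regularised log2 values gave differences of -2.24 (Aqp7) to 1.68 (Acsl5). No paired analysis was possible because replicate numbers come only from accession order. Depth limited Aqp9, G0s2, Plin1 and Plin5, at no more than 40 reads in any library.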
